A study of Homo sapiens with 10 samples.

Results

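The 4 regions described here are windows of 1 Mb in which Smad3 peaks lie close together: chromosome 4 from 169 to 170 Mb around PALLD, chromosome 10 from 3 to 4 Mb around KLF6, chromosome 1 from 8 to 9 Mb beside ERRFI1 and, for A549 cells, chromosome 9 from 21 to 22 Mb around MIR31HG. They were chosen by the measured number of Smad3 peaks, so that number is given as a description and supports nothing. A peak was counted in the window that holds its centre. Together the windows hold 435 of the 79601 peaks of the 7 called lists, of which 117 lie in the PALLD window, 133 in the KLF6 window, 123 in the ERRFI1 window and 62 in the MIR31HG window. All peak positions are on the human build hg18, counted from 1. The gene names of the windows come from the choice of the windows, which places ERRFI1 at about 8.00 Mb, and positions of the genes on hg18 are not given here.

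Chromatin immunoprecipitation with sequencing (ChIP-seq) had been used to map where Smad3, Smad4 and TTF-1 sit on DNA in H441 and A549, both lung adenocarcinoma cell lines. H441 cells are labelled positive for TTF-1 and A549 cells negative. The H441 libraries were Smad3 after knockdown of TTF-1 by siRNA (siTTF-1) or a control siRNA (siControl), Smad4 after the same siRNAs, and TTF-1 at 1.5 h and 0 h, and the A549 library was Smad3. According to the labels all cells received 1 ng/ml TGF-β3 for 1.5 h, a description that does not separate the 0 h library from the others. The same Smad3 antibody was used in both lines. The false discovery rate allowed in peak calling against input DNA was 1% for the H441 Smad3 and TTF-1 libraries, 5% for A549 and 10% for Smad4. Each condition had 1 library, the sequencing depth behind the lists is unknown, and 3 input libraries were not analysed here. No difference between conditions can therefore be set against replicate spread, no p-value is given, and intervals cover counting error only. Both TTF-1 libraries come from cells that are labelled TTF-1 positive, so overlap of a siTTF-1 peak with TTF-1 refers to a site bound in the TTF-1 libraries. The files hold no expression values, so the cell lines could not be checked against markers.

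TGF-β receptors phosphorylate Smad3, which joins Smad4, enters the nucleus and binds short DNA elements, usually together with other transcription factors of the cell. TTF-1, also called NKX2-1, is the homeodomain factor that sets the identity of lung epithelium and remains expressed in many lung adenocarcinomas. PALLD encodes palladin, an actin-associated scaffold of stress fibres and focal adhesions. KLF6 encodes a zinc-finger transcription factor of the Krüppel-like family, and ERRFI1 encodes MIG6, a feedback inhibitor of the epidermal growth factor receptor. MIR31HG is the long non-coding host RNA of miR-31, a microRNA studied in lung cancer.

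The start regions of the 4 genes are shown because the clusters are named for these genes. They come from RefSeq on GRCh38.p14 and run from 250 bases before to 50 bases after each annotated start, 300 bases in all, 5′ to 3′ on the strand of the gene. Their positions are on another build than the peaks and cannot be compared with them. Peak sequences themselves are not shown, because no hg18 genome was used here. Capitals mark matches, on either strand, to CAGAC, the core element of Smad3 and Smad4, to GGCGC, a GC-rich Smad element, to CTCAAG, a core of TTF-1 sites, and to TGANTCA, the element of AP-1. Matches that overlap were counted separately.
PALLD start 1, chr4:168496802-168497101, plus strand: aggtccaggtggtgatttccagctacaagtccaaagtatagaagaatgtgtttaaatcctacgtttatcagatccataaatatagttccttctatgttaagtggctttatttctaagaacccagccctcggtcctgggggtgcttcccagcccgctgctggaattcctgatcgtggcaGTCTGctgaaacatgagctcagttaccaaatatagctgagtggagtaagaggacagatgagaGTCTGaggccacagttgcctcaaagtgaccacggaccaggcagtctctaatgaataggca
PALLD start 2, chr4:168631328-168631627, plus strand: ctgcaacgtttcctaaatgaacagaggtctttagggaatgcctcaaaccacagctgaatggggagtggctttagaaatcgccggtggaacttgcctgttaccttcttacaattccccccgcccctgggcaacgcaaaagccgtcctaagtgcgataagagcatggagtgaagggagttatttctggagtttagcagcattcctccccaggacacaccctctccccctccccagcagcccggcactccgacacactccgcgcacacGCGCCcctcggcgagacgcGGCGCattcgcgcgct
PALLD start 3, chr4:168831845-168832144, plus strand: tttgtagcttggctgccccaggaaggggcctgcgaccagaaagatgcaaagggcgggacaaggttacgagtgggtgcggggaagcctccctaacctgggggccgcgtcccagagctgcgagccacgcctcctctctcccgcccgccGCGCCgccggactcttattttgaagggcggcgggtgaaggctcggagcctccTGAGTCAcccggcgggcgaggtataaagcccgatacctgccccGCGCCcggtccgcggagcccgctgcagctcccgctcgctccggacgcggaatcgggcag
KLF6, chr10:3785160-3785459, minus strand: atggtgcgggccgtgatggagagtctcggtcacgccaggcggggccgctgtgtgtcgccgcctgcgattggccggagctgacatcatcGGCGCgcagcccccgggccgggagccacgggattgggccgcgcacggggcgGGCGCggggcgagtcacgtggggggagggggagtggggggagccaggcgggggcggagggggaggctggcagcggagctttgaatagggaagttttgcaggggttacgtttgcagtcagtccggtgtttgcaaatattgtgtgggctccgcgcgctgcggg
ERRFI1, chr1:8026260-8026559, minus strand: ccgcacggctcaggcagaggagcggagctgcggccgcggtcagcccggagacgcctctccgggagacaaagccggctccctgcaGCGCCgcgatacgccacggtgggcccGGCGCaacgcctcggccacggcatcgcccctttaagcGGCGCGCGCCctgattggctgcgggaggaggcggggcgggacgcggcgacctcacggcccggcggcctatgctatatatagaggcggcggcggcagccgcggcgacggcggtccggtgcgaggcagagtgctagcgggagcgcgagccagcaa
MIR31HG, chr9:21559749-21560048, minus strand: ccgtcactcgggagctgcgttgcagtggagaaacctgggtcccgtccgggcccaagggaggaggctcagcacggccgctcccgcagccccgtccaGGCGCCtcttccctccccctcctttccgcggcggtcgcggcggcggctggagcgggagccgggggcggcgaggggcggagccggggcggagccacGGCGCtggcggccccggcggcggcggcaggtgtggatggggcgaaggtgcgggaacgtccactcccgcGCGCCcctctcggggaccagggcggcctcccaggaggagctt
Among 35114 RefSeq promoters of the same length, 45.3% held CAGAC, 48.6% GGCGC, 12.4% CTCAAG and 7.71% TGANTCA. The element CAGAC matched 2 times at the first PALLD start and at none of the other 5 start regions. The GC-rich element matched 2 times at PALLD starts 2 and 3 and at KLF6, and 4 times each at ERRFI1 and MIR31HG. PALLD start 3 also held 1 AP-1 match, and the TTF-1 core matched none of the 6 windows. Base composition differed between these regions, and its part in the matches was not tested: the GC content was 46.7%, 58.0% and 69.3% at the 3 PALLD starts, 70.7% at KLF6, 74.7% at ERRFI1 and 77.7% at MIR31HG. The mature miR-31, whose gene lies within the annotated span of MIR31HG, is shown as the product of the A549 locus, with its seed (bases 2 to 8) in capitals.
hsa-miR-31-5p, chr9:21512158-21512178, minus strand: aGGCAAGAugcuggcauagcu

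Smad3 in siTTF-1 H441 cells had 35 peaks in the PALLD window, 33 in the KLF6 window, 25 in the ERRFI1 window and 8 in the MIR31HG window. Smad3 in siControl cells had 17, 22, 19 and 7 peaks in the same order of windows. In A549 cells the windows stood in another order, with 18 Smad3 peaks at MIR31HG, 7 at ERRFI1, 4 at PALLD and 3 at KLF6. Over all windows with a peak, the median number was 5 in siTTF-1 cells, 3 in siControl cells and 2 in A549 cells. The PALLD and KLF6 windows ranked first and second of 2306 windows in siTTF-1 cells. In siControl cells KLF6 ranked first of 2088 windows, the ERRFI1 window shared its count of 19 with 2 others, and PALLD ranked 10. MIR31HG ranked first of 1115 windows in A549 cells.

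The choice of windows is not a strict ranking. Just outside it, the windows at 115 to 116 Mb of chromosome 1, 35 to 36 Mb of chromosome 21 and 29 to 30 Mb of chromosome 8 had 28, 27 and 27 siTTF-1 peaks, above the 25 of the ERRFI1 window. The siControl window at 59 to 60 Mb of chromosome 1 and the same chromosome 21 window tied with ERRFI1 at 19. In A549 cells the windows at 43 to 44 Mb of chromosome 21 and 74 to 75 Mb of chromosome 9 followed MIR31HG with 17 peaks each.

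**Figure D1:**
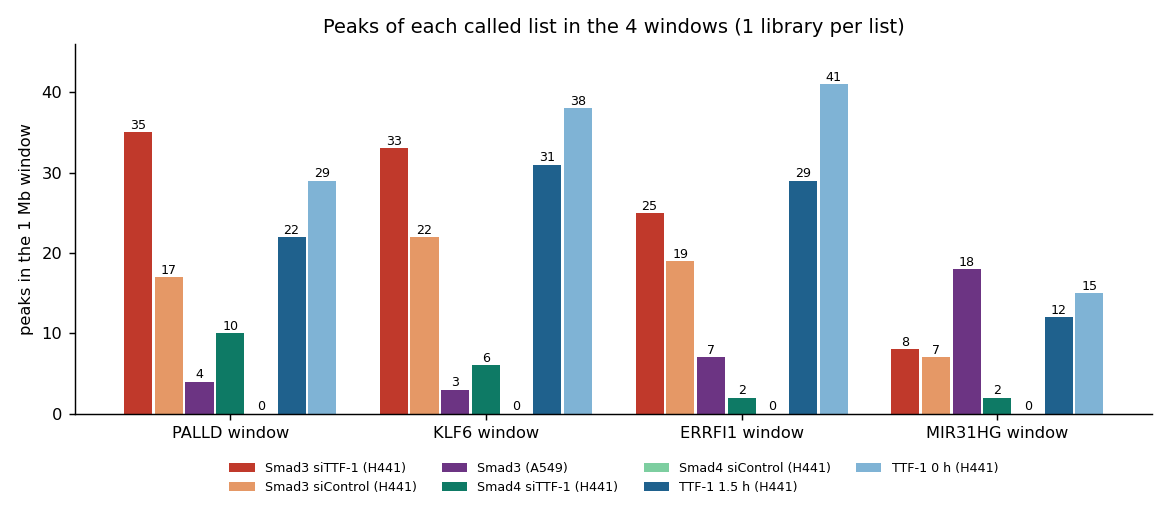
Number of peaks (vertical axis) of each of the 7 called lists in the 4 windows of 1 Mb, with 1 library per bar and no error bar. Smad3 in siTTF-1 H441 cells is highest at PALLD with 35 peaks, and the A549 Smad3 bar is highest at MIR31HG with 18.

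TTF-1 and Smad4 were not used to choose the windows, but their peaks often coincide with Smad3 peaks. Of the whole Smad4 list, 80.5% of peaks lay on a siTTF-1 Smad3 peak. Of the whole siControl Smad3 list, 82.2% overlapped TTF-1 at 1.5 h. Their counts and ranks in windows picked for many Smad3 peaks are therefore not independent of the choice. At PALLD, TTF-1 had 22 peaks at 1.5 h and 29 at 0 h, and the window ranked 78 at 1.5 h and 101 at 0 h. At KLF6 it had 31 peaks at 1.5 h and 38 at 0 h, at ERRFI1 29 at 1.5 h and 41 at 0 h, and at MIR31HG 12 at 1.5 h and 15 at 0 h. KLF6 ranked 7 at 1.5 h and 15 at 0 h, ERRFI1 13 at 1.5 h and 5 at 0 h, and MIR31HG 585 at 1.5 h and 764 at 0 h. In all 4 windows the TTF-1 list was shorter at 1.5 h than at 0 h, by a ratio of 0.759 at PALLD, 0.816 at KLF6, 0.707 at ERRFI1 and 0.80 at MIR31HG, against 0.685 for the whole lists. Smad4 in siTTF-1 cells had 10 peaks at PALLD, the highest number in any window of its list, 6 at KLF6 and 2 each at ERRFI1 and MIR31HG, with a median of 1 over the 1026 windows with a peak. The siControl Smad4 list had 0 peaks in all 4 windows, and it held only 1 peak in the genome.

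**Figure D2:**
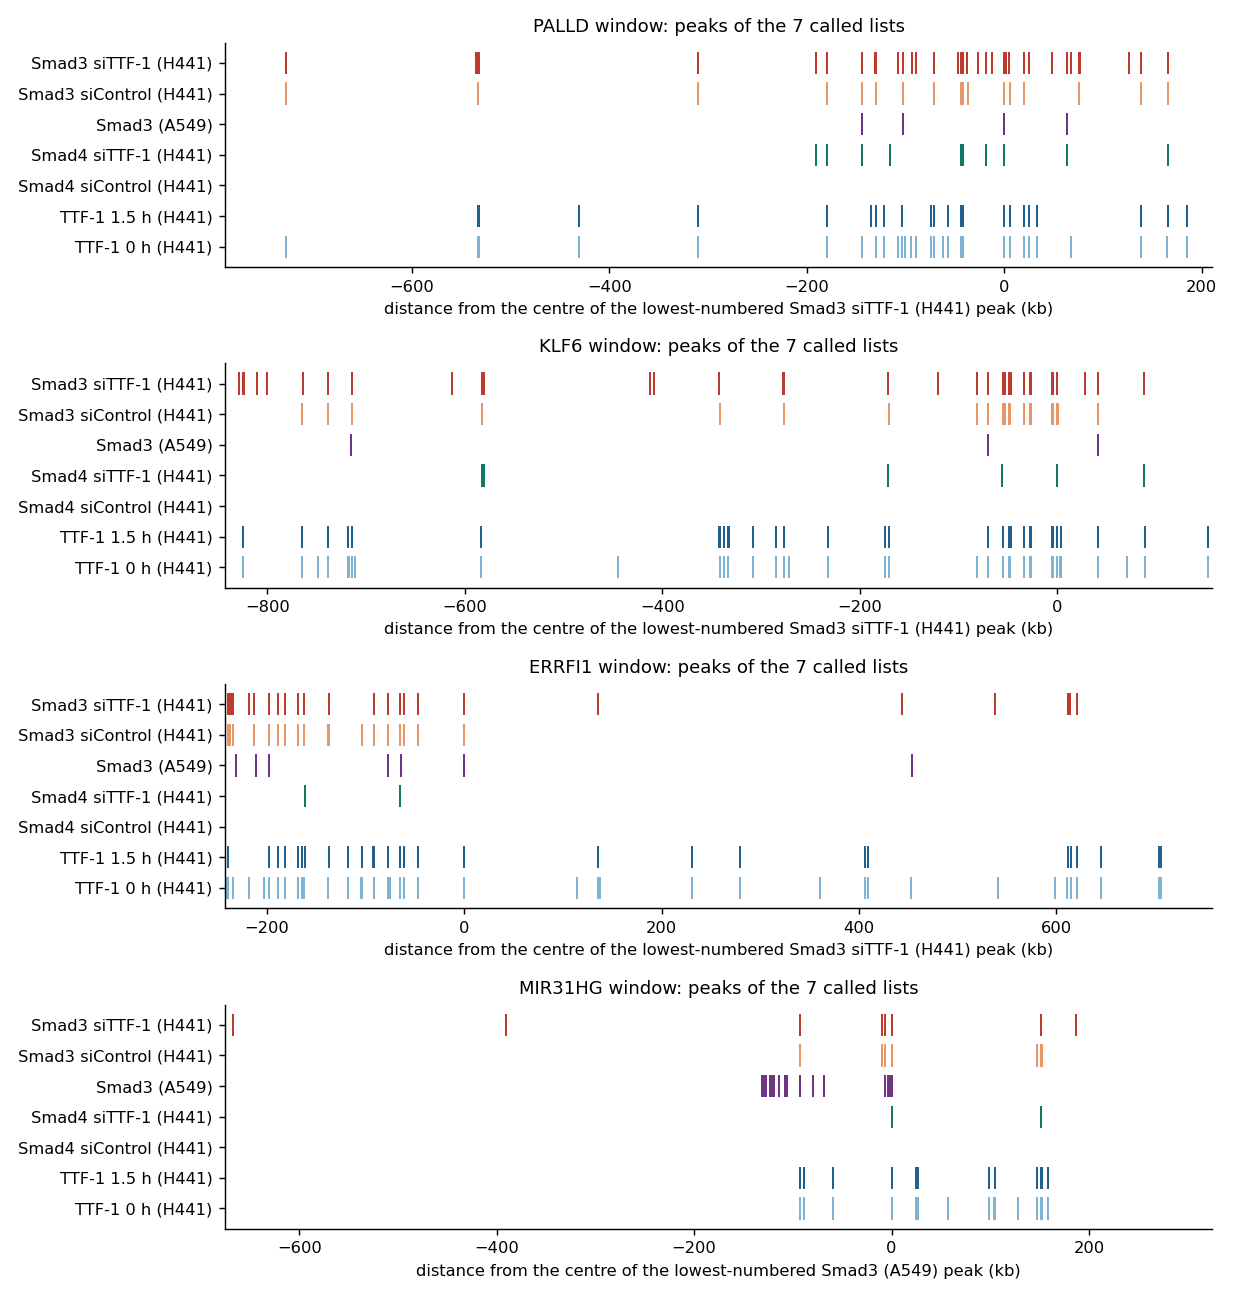
Position of each peak in the 4 windows as distance in kb from the centre of the lowest-numbered Smad3 peak, taken from siTTF-1 H441 cells in the first 3 panels and from A549 cells in the MIR31HG panel; each row is a called list and each tick a peak. The longest siTTF-1 run at PALLD holds 30 peaks, and 13 of the 18 A549 peaks at MIR31HG form a single run in which H441 Smad3 has 1 peak per condition.

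The peaks were not spread evenly over the windows. A run was taken as consecutive peaks of a list with gaps of at most 50 kb between them. At PALLD the longest siTTF-1 run held 30 of the 35 peaks over 357199 bp (chr4:169598251-169955449), and the longest siControl run held 11 of the 17 peaks over 200549 bp (chr4:169609101-169809649). At KLF6 the longest siTTF-1 run held 16 of 33 peaks (chr10:3722251-3931599) and the longest siControl run 15 of 22 (chr10:3761601-3885199). At ERRFI1 all 19 siControl peaks formed a single run of 239549 bp (chr1:8002751-8242299), whose first peak lies close to the position given for the gene, and the siTTF-1 run over almost the same stretch also held 19 peaks. The A549 run at MIR31HG was the tightest of these: 13 peaks lay within 63399 bp (chr9:21543251-21606649). All 18 A549 peaks of the window ended by position 21675599. Neighbouring centres of these 18 were a median of 2850 bp apart, against 230625 bp over the whole A549 list. The window was picked for its many A549 peaks, so their close spacing is not independent of the choice.

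In what follows a siTTF-1 Smad3 peak is called gained when it shares no base with a siControl Smad3 peak and kept when it shares at least 1, and a siControl peak without a siTTF-1 counterpart is called lost. The whole siTTF-1 list was 1.58 times as long as the siControl list (exact 95% interval 1.54 to 1.62). The ratio was 2.06 (1.12 to 3.92) at PALLD, 1.50 (0.849 to 2.70) at KLF6, 1.32 (0.696 to 2.53) at ERRFI1 and 1.14 (0.362 to 3.70) at MIR31HG. All 4 intervals hold the ratio of the whole lists. They treat both lists as separate counts, although most siControl peaks overlapped a siTTF-1 peak. The intervals therefore do not measure the uncertainty of the ratio, and a difference from the whole lists was not tested. The ratio depends on the length of the lists. With the siTTF-1 list shortened by peak number to as many peaks as the siControl list, it was 1.53 at PALLD, 1.00 at KLF6, 0.842 at ERRFI1 and 0.857 at MIR31HG. With both lists shortened to the length of the A549 list, it was 1.62 at PALLD, 2.25 at KLF6, 0.455 at ERRFI1 and 2.50 at MIR31HG. In both settings the lists were equally long, so the whole-list ratio was 1.00 by construction. The counts were small: at the A549 length MIR31HG had 5 siTTF-1 and 2 siControl peaks, and KLF6 had 9 and 4. Gained peaks made up 18 of 35 at PALLD (51.4%, 34.0 to 68.6), 13 of 33 at KLF6 (39.4%, 22.9 to 57.9), 8 of 25 at ERRFI1 (32.0%, 14.9 to 53.5) and 3 of 8 at MIR31HG (37.5%, 8.52 to 75.5), against 49.1% of the whole siTTF-1 list. With only as many siTTF-1 peaks as siControl peaks, kept by peak number, the gained share was 46.2% at PALLD, 18.2% at KLF6, 12.5% at ERRFI1 and 16.7% at MIR31HG, against 33.5% of the whole list. Of the siControl peaks, 17 of 17 were kept at PALLD, 21 of 22 at KLF6, 17 of 19 at ERRFI1 and 5 of 7 at MIR31HG, against 80.8% of the whole list. With both lists at the A549 length the kept share at ERRFI1 was 36.4%, against 60.2% of the whole list. Both lists served in the choice of the windows, so these shares are descriptions.

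The gained peaks lay in different places relative to the siControl runs. At PALLD 9 of the 18 gained peaks fell inside the siControl run and 9 outside it. At KLF6 only 1 of 13 fell inside, and 12 lay elsewhere in the window, from chr10:3012951-3013749 to chr10:3931151-3931599. At ERRFI1 2 of 8 fell inside, and the other 6 lay beyond its end, from chr1:8377501-8377999 to chr1:8862201-8863349. All 17 kept ERRFI1 peaks lay inside the run, but by construction, because the run holds all 19 siControl peaks of the window. Of the kept siTTF-1 peaks at PALLD, 11 lay inside the siControl run and 6 outside it. At KLF6 13 kept peaks lay inside and 7 outside.

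The 5 lost sites fall into 2 kinds. The KLF6 loss, number 6146 of the siControl list (chr10:3843451-3843749, 299 bp), had no TTF-1 peak at either time. It lay beside the site with the lowest H441 Smad3 numbers of the window. The ERRFI1 losses were number 913 (chr1:8138051-8138649) and number 2352 (chr1:8103901-8104549), and both overlapped TTF-1 at 1.5 h and at 0 h. The second of these shares its TTF-1 peak with the next siControl peak, number 1050, which was kept at 299 bp in siTTF-1 cells against 599 bp in siControl cells. The MIR31HG losses were numbers 8726 (chr9:21822101-21822549) and 6870 (chr9:21827451-21827999), again with TTF-1 at both times. PALLD lost none.

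Overlap with TTF-1 differed between gained and kept peaks. At PALLD 2 of 18 gained peaks overlapped a TTF-1 1.5 h peak, against 13 of 17 kept siTTF-1 peaks. At KLF6 the numbers were 2 of 13 gained and 18 of 20 kept, at ERRFI1 4 of 8 gained and 14 of 17 kept, and at MIR31HG 0 of 3 gained and 3 of 5 kept. Over the whole list 26.4% of gained peaks and 80.9% of kept peaks overlapped TTF-1 at 1.5 h, so the order of the 2 classes in each window was that of the whole list. The ERRFI1 share of gained peaks, 50%, had an exact interval of 15.7 to 84.3 that holds the whole-list value.

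Taken over all peaks of a window, 15 of 35 siTTF-1 peaks overlapped TTF-1 at 1.5 h at PALLD (42.9%, 26.3 to 60.6), 20 of 33 at KLF6 (60.6%, 42.1 to 77.1), 18 of 25 at ERRFI1 (72.0%, 50.6 to 87.9) and 3 of 8 at MIR31HG, against 54.1% of the whole list. In siControl cells the shares were 13 of 17, 19 of 22, 16 of 19 and 5 of 7 in the same order, against 82.2%. With the 0 h list the siTTF-1 counts were 21, 22, 19 and 3, against 62.5%, and the siControl counts 15, 20, 17 and 5, against 87.7%. Of these shares, each whole-list value lies inside the interval of the window.

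Seen from TTF-1, 15 of 22 TTF-1 1.5 h peaks at PALLD (68.2%, 45.1 to 86.1), 21 of 31 at KLF6 (67.7%, 48.6 to 83.3) and 18 of 29 at ERRFI1 (62.1%, 42.3 to 79.3) overlapped a siTTF-1 Smad3 peak, against 35.9% of the whole list. These windows were picked for many Smad3 peaks, so these shares are not independent of the choice. At MIR31HG, which was picked on A549 peaks, 3 of 12 did (25.0%, 5.49 to 57.2). Among TTF-1 1.5 h peaks, 20 of 22, 31 of 31, 28 of 29 and 12 of 12 had a 0 h counterpart in the order PALLD, KLF6, ERRFI1 and MIR31HG, against 95.8%. Among 0 h peaks, 20 of 29, 30 of 38, 28 of 41 and 13 of 15 had a 1.5 h counterpart, against 65.3%. Some low-numbered TTF-1 sites of the clusters carried no Smad peak of any list: number 1028 at 1.5 h and 653 at 0 h in the KLF6 window (chr10:3610301-3610999 at 1.5 h), number 2304 at 0 h in the PALLD window, and the lowest-numbered TTF-1 peak of the MIR31HG window at either time, number 3857 at 1.5 h and 2907 at 0 h.

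**Figure D3:**
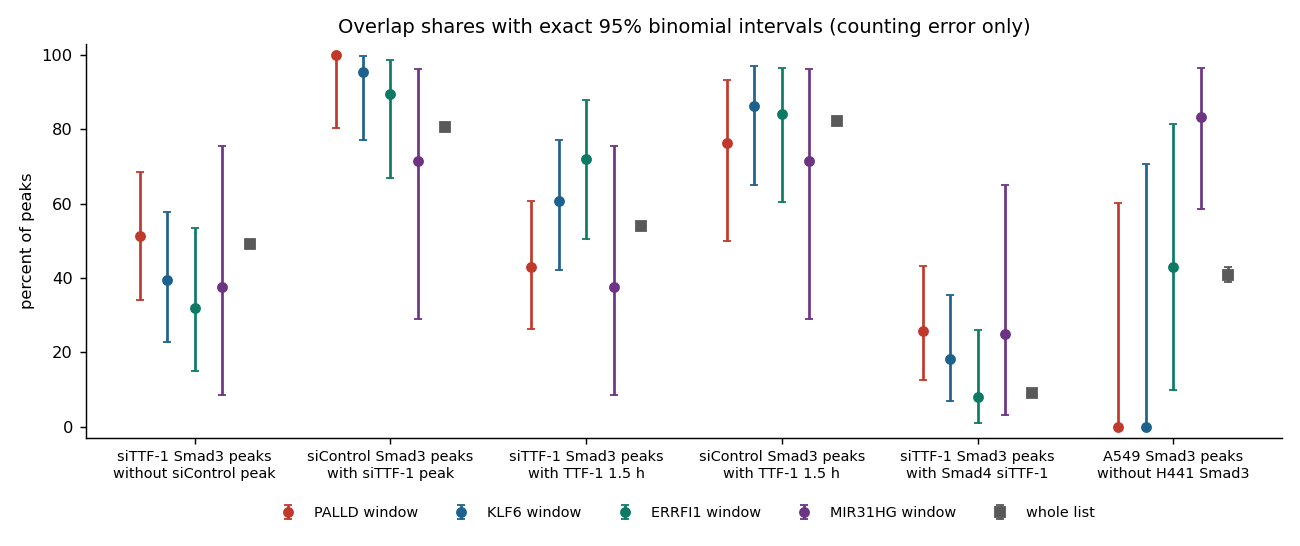
Percent of peaks (vertical axis) that meet each condition on the horizontal axis, in the 4 windows (circles) and in the whole list (squares), with exact 95% binomial intervals that cover counting error only. The siTTF-1 Smad3 share with Smad4 is 25.7% at PALLD against 9.06% in the whole list, and the A549 share without H441 Smad3 is 83.3% at MIR31HG against 40.9%.

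All but 1 of the 20 Smad4 peaks of siTTF-1 cells in the windows lay on a siTTF-1 Smad3 peak. At PALLD 9 of 10 did (90.0%, 55.5 to 99.7), at KLF6 6 of 6 (100%, 54.1 to 100), and at ERRFI1 and MIR31HG 2 of 2 each (100%, 15.8 to 100), against 80.5% of the Smad4 list. All of these intervals hold the share of the list, and the PALLD, KLF6 and ERRFI1 windows were picked for many such Smad3 peaks. The 1 exception, number 1505 (chr4:169672951-169673149, 199 bp), overlapped no other list. From the Smad3 side, 9 of 35 siTTF-1 peaks at PALLD overlapped Smad4 (25.7%, 12.5 to 43.3), against 9.06% of the whole list. The counts were 6 of 33 at KLF6 (18.2%, 6.98 to 35.5), 2 of 25 at ERRFI1 (8.00%, 0.984 to 26.0) and 2 of 8 at MIR31HG (25.0%, 3.19 to 65.1). Only the PALLD interval lies above the whole-list share. When Smad4 had to cover 50% of the Smad3 peak, the PALLD share was 2.86%, against 1.94% of the whole list. The Smad4 and Smad3 libraries share cells of the same condition. Among kept siTTF-1 peaks Smad4 was found at 6 of 17, 4 of 20, 2 of 17 and 2 of 5 in the order PALLD, KLF6, ERRFI1 and MIR31HG, against 12.4%. Among gained peaks it was found at 3 of 18, 2 of 13, 0 of 8 and 0 of 3, against 5.54%.

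Single sites show these patterns. Each list numbers its peaks from 1, and no source used here says what the number means. Numbers of lists of different length are given side by side only. A single PALLD site had the lowest number of both H441 Smad3 lists in the window. It was number 6 of the siTTF-1 Smad3 list (chr4:169788251-169790099, 1849 bp wide) and number 105 of the siControl list (chr4:169788301-169789299, 999 bp). It was also number 580 in A549 cells, 555 for Smad4 in siTTF-1 cells, 6293 for TTF-1 at 1.5 h and 15366 for TTF-1 at 0 h. This site thus carried a peak of every list except Smad4 in siControl cells. A gained PALLD site had no TTF-1 at either time but was the lowest-numbered Smad4 peak of the window: it was number 812 of the siTTF-1 Smad3 list (chr4:169852201-169853249), number 90 of the Smad4 list (chr4:169852301-169852749) and number 845 in A549 cells (chr4:169852401-169853299). Smad3 was therefore called there in both TTF-1-depleted H441 cells and TTF-1-negative A549 cells, and not in siControl H441 cells. It was the only gained site with an A549 peak, 1 of 18 gained at PALLD and none of those in the other windows. The share of gained peaks with an A549 peak over the whole list was not computed.

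Other PALLD sites with Smad4 were mostly kept sites with TTF-1. Number 506 of the siTTF-1 list and 342 of the siControl list (chr4:169745001-169746249 in siTTF-1 cells) overlapped Smad4 number 769 and TTF-1 numbers 1167 at 1.5 h and 1620 at 0 h. The next site, number 566 in siTTF-1 cells and 502 in siControl cells, overlapped Smad4 number 762. The Smad4 peaks 858 and 834 fell on gained sites without TTF-1. The site with the lowest TTF-1 number of the window, 425 at 1.5 h and 821 at 0 h (chr4:169685201-169686949 at 1.5 h), was number 3366 for Smad3 in siTTF-1 cells and 414 in siControl cells, with an A549 peak and no Smad4.

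In the KLF6 window a single site had the lowest number of both H441 Smad3 lists and both TTF-1 lists. It was number 88 for Smad3 in siTTF-1 cells (chr10:3842201-3843049) and 371 in siControl cells (chr10:3842201-3842999), number 576 for TTF-1 at 1.5 h and 492 at 0 h, and number 864 for Smad4. Smad4 had its lowest number elsewhere. Its lowest number in any of the 4 windows was 44 (chr10:3787201-3787549), at a kept site that was number 1059 for Smad3 in siTTF-1 cells and 4729 in siControl cells. The widest Smad3 peaks of the window, numbers 2042 in siTTF-1 cells and 2598 in siControl cells, were 2149 bp (siTTF-1) and 2349 bp (siControl) wide and spanned 2 TTF-1 1.5 h peaks. Of the 6 Smad4 peaks, 4 lay on kept sites and 2, numbers 462 and 1111, on gained sites.

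In the ERRFI1 window the lowest Smad3 number of siTTF-1 cells was 461 (chr1:8241501-8242549, 1049 bp), at a site that was number 4782 in siControl cells and 1197 in A549 cells. The lowest number of siControl cells was 229 (chr1:8078701-8081149, 2449 bp), at a site that was number 557 in siTTF-1 cells with 1599 bp. That second site also held the lowest TTF-1 numbers of the window, 824 at 1.5 h and 418 at 0 h, and Smad4 number 799. A site at chr1:8176901-8177849 had a peak of every list except Smad4 in siControl cells: number 653 for Smad3 in siTTF-1 cells, 704 in siControl cells, 600 in A549 cells and 264 for Smad4, with TTF-1 numbers 8969 at 1.5 h and 7935 at 0 h. At chr1:8072851-8073549 the Smad3 number was 6177 in siTTF-1 cells and 419 in siControl cells.

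Each kept siControl peak was compared with the widest siTTF-1 peak that overlaps it. At PALLD, KLF6 and MIR31HG more kept peaks were wider than narrower in siTTF-1 cells, and at ERRFI1 fewer were. At PALLD 13 of 17 kept siControl peaks were wider in siTTF-1 cells and 2 were narrower, with median widths of 849 bp in siTTF-1 cells and 599 bp in siControl cells. At KLF6 13 of 21 were wider and 6 narrower, with 949 bp in siTTF-1 cells and 699 bp in siControl cells. Of these 13, siControl numbers 8251 and 4209 were both paired with siTTF-1 number 8784. That peak, 949 bp wide, spans both and is wider by construction. At MIR31HG 5 of 5 were wider, with 899 bp in siTTF-1 cells and 749 bp in siControl cells. At ERRFI1 3 of 17 were wider and 12 narrower, with 749 bp in siTTF-1 cells and 799 bp in siControl cells. Over the whole list 53.1% of kept siControl peaks were wider in siTTF-1 cells and 31.4% narrower, against which the 61.9% wider at KLF6 is close. The median of the paired differences, siTTF-1 minus siControl, was 150 bp at PALLD, 100 bp at KLF6, -50 bp at ERRFI1 and 200 bp at MIR31HG, against 50 bp for the whole list, where 50 bp is the step in which the files give positions.

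The median peak number of the kept sites is given side by side for both lists. It was 1705 in siTTF-1 cells and 3480 in siControl cells at PALLD, 3347 in siTTF-1 cells and 4729 in siControl cells at KLF6, and 1185 in siTTF-1 cells and 2998 in siControl cells at MIR31HG. At ERRFI1 it was 5364 in siTTF-1 cells and 2513 in siControl cells, and for the whole list 4209 in siTTF-1 cells and 3921 in siControl cells. Because the lists differ in length, these numbers are not ranks on a common scale. Width and number are measures of the same peaks that chose the windows, and each rests on 1 library per condition, so whether ERRFI1 differs from the other clusters was not tested.

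**Figure D4:**
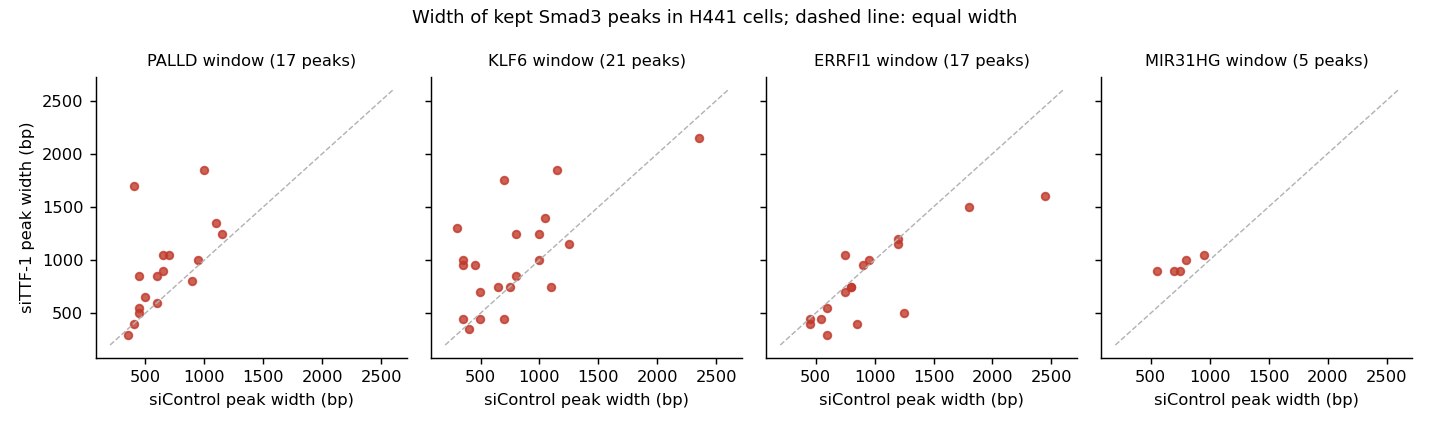
Width in bp of each kept siControl Smad3 peak (horizontal axis) and of the widest siTTF-1 peak that overlaps it (vertical axis) in H441 cells. The dashed line marks equal width. At PALLD 13 of 17 points lie above the line, at KLF6 13 of 21 and at MIR31HG 5 of 5, whereas at ERRFI1 12 of 17 lie below it.

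Between the lines, the A549 peaks of the PALLD and KLF6 windows were few and all lay at H441 Smad3 sites, whereas most of those at MIR31HG did not. All 4 A549 peaks at PALLD (100%, 39.8 to 100) and all 3 at KLF6 (100%, 29.2 to 100) overlapped a siTTF-1 H441 Smad3 peak, as did 4 of 7 at ERRFI1 (57.1%, 18.4 to 90.1) and 3 of 18 at MIR31HG (16.7%, 3.58 to 41.4), against 58.2% of the A549 list. The first 3 intervals hold the share of the list, and those windows were picked for many H441 Smad3 peaks. The 7 A549 peaks at ERRFI1 gave that window rank 30 of 1115. With siControl H441 Smad3 the counts were 3 of 4, 3 of 3, 4 of 7 and 3 of 18, against 42.5%. No H441 Smad3 peak of either condition met 15 of the 18 A549 peaks at MIR31HG (83.3%, 58.6 to 96.4) and 3 of the 7 at ERRFI1 (42.9%, 9.90 to 81.6), against 40.9%. The MIR31HG interval lies above the whole-list share in a window picked for its many A549 peaks. The A549 list was called at a looser false discovery rate limit and is shorter than the H441 Smad3 lists, and the part of the limit in these counts was not tested. With the H441 lists shortened to the A549 length by peak number, a siTTF-1 H441 peak met 75.0% of the A549 peaks at PALLD, 100% at KLF6, 28.6% at ERRFI1 and 16.7% at MIR31HG, against 26.0% of the A549 list.

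TTF-1 sites of H441 cells were also set against the A549 Smad3 peaks. A TTF-1 peak at 1.5 h or 0 h overlapped 3 of 4 A549 peaks at PALLD (75.0%, 19.4 to 99.4). The counts were 3 of 3 at KLF6 (100%, 29.2 to 100) and 5 of 7 at ERRFI1 (71.4%, 29.0 to 96.3). At MIR31HG it was 2 of 18 (11.1%, 1.38 to 34.7), against 49.9% of the A549 list. The first 3 intervals hold the share of the list, and the MIR31HG interval lies below it. The first 3 windows were picked for H441 Smad3 peaks and MIR31HG for A549 Smad3 peaks, so these shares are not independent of the choice. The lowest A549 number in the KLF6 window, 159 (chr10:3127201-3128449), lay at a kept H441 site far from the main run, number 1841 in siTTF-1 cells and 5325 in siControl cells. At ERRFI1 the A549 peaks without H441 Smad3 were numbers 1438, 2525 and 450, and the last of these (chr1:8694901-8695899) was the lowest number of the window and overlapped a TTF-1 0 h peak.

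The A549 run at MIR31HG held more A549 peaks than H441 peaks of any list. Within this run of 13 peaks over 63399 bp, Smad3 had 1 peak each in siTTF-1 and siControl H441 cells. TTF-1 had 2 at 1.5 h and 2 at 0 h. Over the whole lists, neighbouring Smad3 centres were a median of 51400 bp apart in siTTF-1 cells and 81837.5 bp in siControl cells. For TTF-1 the medians were 38175 bp at 1.5 h and 26075 bp at 0 h. The H441 counts were thus not low for a stretch of that length. The shared site, number 795 in A549 cells (chr9:21581451-21582149), was number 1521 in siTTF-1 cells and 3343 in siControl cells. The 12 other peaks of the run had neither H441 Smad3 nor TTF-1, among them the widest, number 724 (chr9:21547301-21549299, 1999 bp), and the low numbers 557 (chr9:21595351-21596249) and 572 (chr9:21606051-21606649). The lowest A549 number of the window, 221 (chr9:21674451-21675599), lay in the second group of 5 peaks and was a site of every list except Smad4 in siControl cells: number 1185 for Smad3 in siTTF-1 cells, 1782 in siControl cells, 1164 for Smad4, and TTF-1 numbers 8134 at 1.5 h and 5543 at 0 h. The other MIR31HG Smad4 peak, number 1078, lay at a kept H441 site without A549 Smad3 (chr9:21826351-21827249 in siTTF-1 cells). A549 is known to carry a homozygous deletion that includes CDKN2A, a gene that RefSeq lists shortly after MIR31HG. How far the deletion reaches into this window was not examined, and DNA copy number was not measured here.

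RefSeq protein-coding genes were ordered by start position only, so a gene listed beside another can also lie within it. In this order the genes beside PALLD are DDX60L and CBR4, and those beside KLF6 are PITRM1 and AKR1E2. Those beside ERRFI1 are PARK7 and SLC45A1, and those beside MIR31HG are IFNA1 and IFNE. The peaks were not assigned to any of these genes, and no expression of any gene was measured, so a cluster is named for its place only.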

How the data were processed

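Peak lists from ChIP-seq in H441 and A549 cells were used, 1 library per condition and no replicates. Per the labels, the authors called peaks against input DNA at false discovery rate limits of 1%, 5% or 10%. The build is hg18 per the submitters' processing notes, and aligner and peak caller: not given in the sources used here. Each deposited list gives peak positions, a number per peak and a further score. The deposited peak number, itself a score of unstated meaning, runs from 1 to the length of the list, and the other deposited score is 1000 for every peak in the lists and was not used. Starts were converted to count from 1, and 1 track line was skipped. Because depth is unknown, precision is given only as exact Clopper-Pearson 95% intervals.

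Peaks were assigned to 1 Mb windows by their centre, and overlap meant at least 1 bp. The same rule recovered the 3 deposited subsets in full within the windows. The windows, genes and measures were chosen with earlier results of these data known. In each window, sites to name were drawn from the 3 lowest peak numbers and the widest, first and last peaks of each list. Smad4 peaks, lost sites and sites shared by many lists were added. Only some of these are named in the text. A few others, such as an ERRFI1 site with Smad3 numbers far apart, were chosen after their values were seen. Alternatives changed the window assignment, grid and size, the overlap rule, the list length by peak number, the width and the TTF-1 list. Promoters and miR-31 come from RefSeq (GRCh38.p14), where all 4 genes matched. Python 3.11.15, NumPy 2.4.6, SciPy 1.17.1 and matplotlib 3.10.9 were used. On shifted copies of the lists, 9 overlap counts equalled those of bedtools 2.31.1, as did 12 window counts on the unshifted lists.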

Additional observations from a re-analysis of the deposited data

How the results depend on the processing

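Each of the 62 values was recomputed under the alternatives. Of 345 recomputed values, 279 stayed within 1.5 times the count or rank, or within the interval of the share or ratio. These intervals are wide at small counts, so the tally does not measure robustness. The MIR31HG ratios of 0.857 and 2.50, for example, both stayed within 0.362 to 3.70. No paired analysis was possible because each condition had 1 library and no replicate number. Assigning peaks by start (38 of the 279 values) or by any overlap (62 of them) moved nothing, nor did the TTF-1 0 h list.

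Shortening the H441 Smad3 lists to the A549 length by peak number, which by construction leaves fewer peaks, left 13 siTTF-1 and 8 siControl peaks at PALLD, 9 and 4 at KLF6, 5 and 11 at ERRFI1 (ratio 0.455, below 1 unlike in the full lists), and 5 and 2 at MIR31HG. Both lists were then equally long, so the whole-list ratio was 1 by construction. Ranks were then 5 (siTTF-1) and 77 (siControl) for KLF6, 37 and 1 for ERRFI1, and 6 (siControl) for PALLD. The kept share was 100% at KLF6 and MIR31HG and 36.4% at ERRFI1, against 60.2% of the whole list. For the TTF-1 and Smad4 shares in the rest of this paragraph, no whole-list share was computed on the shortened lists. They cannot be set against the shares of the full lists. The siTTF-1 share with TTF-1 1.5 h was 61.5% at PALLD and 100% at KLF6 and ERRFI1, the siControl share 100% at KLF6, ERRFI1 and MIR31HG, and the siTTF-1 share with Smad4 61.5% at PALLD and 40.0% at ERRFI1. Shortening siTTF-1 to the siControl length also makes the whole-list ratio 1.00 by construction. The ratio was then 0.842 at ERRFI1, 0.857 at MIR31HG and 1.00 at KLF6. This shortening left 16 siTTF-1 peaks at ERRFI1 (rank 14) and gained shares of 18.2% at KLF6 and 12.5% at ERRFI1. The share with TTF-1 1.5 h was 81.8% at KLF6.

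Ranks depend on the grid; the densest shifted or smaller window at each cluster was taken. With windows moved by 500 kb they were 2 for PALLD and 5 each for KLF6 and ERRFI1 in siControl cells, 10 for KLF6 and 26 for ERRFI1 in siTTF-1 cells, and 13, 27 and 66 for PALLD, KLF6 and ERRFI1 in TTF-1 1.5 h. With windows every 100 kb they were 4 for PALLD and 12 for ERRFI1 (siControl), 13 for ERRFI1 (siTTF-1), and 30, 20 and 38 in TTF-1 1.5 h. With 500 kb windows they were 5 for KLF6 (siTTF-1), 2 for KLF6 and 1 for ERRFI1 (siControl), and 34 for PALLD and 1 for KLF6 in TTF-1 1.5 h. With peaks within 500 bp merged they were 4, 3 and 4 for PALLD, KLF6 and ERRFI1 (siControl), 7 for ERRFI1 in TTF-1 1.5 h and 3 for MIR31HG in A549.

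Overlap rules moved fewer values. Of the shares in this paragraph, only that with Smad4 at 50% of the peak has a whole-list value under its rule, 1.94%. The others cannot be set against the whole-list shares under the main rule. Requiring 50% of the peak cut the siTTF-1 share with Smad4 to 2.86% at PALLD, 3.03% at KLF6 and 0% at ERRFI1 and MIR31HG; Smad4 peaks are narrower than Smad3 peaks. The kept share at KLF6 was 72.7% with centres within 200 bp and 100% with edges within 500 bp. In the wider 50% of each list the kept share was 66.7% at ERRFI1 and 100% at MIR31HG, the share with TTF-1 1.5 h was 25.0% at PALLD and 91.7% at ERRFI1, and the share with Smad4 was 0% at ERRFI1 and MIR31HG. Apart from these constructions the cause was not tested.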

Other observations

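The windows beside the clusters were looked at after the counts were known. Smad3 peaks were also found in the windows that follow. At 4 to 5 Mb of chromosome 10 there were 13 Smad3 peaks in siTTF-1 cells and 9 in siControl cells, and at 9 to 10 Mb of chromosome 1 there were 20 in siTTF-1 cells and 13 in siControl cells. The window before ERRFI1, at 7 to 8 Mb, had 4 A549 peaks, 1 siTTF-1 peak and 0 siControl peaks, and the longest A549 run beside ERRFI1 (chr1:7987501-8044399) crosses its border. The window after MIR31HG, at 22 to 23 Mb of chromosome 9, had 3 A549 peaks, 14 siTTF-1 peaks and 5 siControl peaks. The window after PALLD had 10 siTTF-1 and 8 siControl peaks, and the window before it 4 siTTF-1 and 2 siControl peaks.

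A window of chromosome 21 at 43 to 44 Mb was dense in both lines, with 17 A549 peaks, 24 siTTF-1 peaks and 10 siControl peaks.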
